A study of Mus musculus with 2 samples.

Results

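The macrophage polarisation genes Nos2, Mrc1, Retnla, Chil3, Acod1 and Cd163 were followed through single-cell RNA sequencing of J558 allografts. They were taken by symbol, and all 6 were found among the 32285 features of each library. J558 is a mouse plasmacytoma line, a tumour of antibody-secreting B lineage cells, and was grown under the skin of the flank in female BALB/c mice. The control group received the vehicle, 0.5% methylcellulose, and the other received TAK-931, an inhibitor of the replication kinase CDC7, at 60 mg/kg by mouth once a day, and both groups were sampled on day 6. Each group is 1 library, and the study describes 1 allograft of each group for this assay (although a legend to its allograft plots speaks of independent experiments), so no spread between animals could be measured, no test between the treatments was possible, and all intervals below cover 95% of the counting error only. An effect of the compound cannot be told apart from a difference between the tumours of these 2 libraries.

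The vehicle library held 4565 barcodes and 144767193 UMIs (unique molecular identifiers, each standing for 1 captured transcript), and the TAK-931 library held 6558 barcodes and 77369283 UMIs. The analysis used the barcodes that had more than 2000 genes and less than 15% mitochondrial UMIs, 3441 (75.4%) in the vehicle library and 3488 (53.2%) in the TAK-931 library, and 8 barcodes of the 10x whitelist occurred in both libraries. Myeloid cells were gated on 8 markers shared by monocytes and macrophages (among them Lyz2, Csf1r, Cd68, Ctss, Cd14, Adgre1 and Ms4a6c) and divided by the complement genes C1qa, C1qb and C1qc into a macrophage gate and a monocyte gate. None of the 6 genes was used to gate. The macrophage gate held 133 vehicle and 1268 TAK-931 cells, 3.87% and 36.4% of the kept cells, with medians of 13283 and 16400.5 UMIs. The monocyte gate held 94 vehicle and 791 TAK-931 cells, with medians of 8414 and 12110 UMIs.

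The C1q genes divide the gates, so their contrast between the gates was fixed in advance and is given as a description. The summed level of the 3 C1q genes in the macrophage gate was 12475 CPM (UMIs of the gene, scaled to 1000000 UMIs of the gate) in the vehicle library and 10338 CPM in the TAK-931 library, against 18.8 and 108 CPM in the monocyte gate. The 6 monocyte markers (Ly6c2, Ccr2, Plac8, Ace, Treml4 and Cd300e) summed to 2671 and 4760 CPM in the monocyte gate. Their sum differed between the treatments inside the macrophage gate too, at 395 CPM in the vehicle library and 1313 CPM in the TAK-931 library. None of the 6 was at 0 in either library. Treml4 went the other way from the sum there, at 59.3 CPM in the vehicle library and 16.4 CPM after TAK-931. The cell shares of Treml4 were 44.4% (vehicle) and 15.1% (TAK-931). Each of the other markers was higher in the TAK-931 macrophage gate. Ly6c2, a surface protein of freshly recruited classical monocytes, was found in 17.3% of vehicle and 63.9% of TAK-931 macrophage-gated cells. The 5 plasmacytoma markers moved the opposite way to the summed monocyte markers. They had 276 CPM in vehicle and 48.1 CPM in TAK-931 macrophage-gated cells, with 323 and 39.0 CPM in the monocyte gate. The members are therefore also given below for cells with and without a Ly6c2 UMI and for cells with no plasmacytoma marker UMI. A split of the macrophage gate by Treml4 was not tested.

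Macrophages change their gene expression with the cytokines around them. Interleukin-4 and interleukin-13 act through STAT6 and induce the mannose receptor (Mrc1, CD206) and the secreted proteins Retnla (RELM-alpha) and Chil3 (Ym1). Interferon gamma and bacterial products act through NF-kB and other factors and induce the inducible nitric oxide synthase (Nos2) and Acod1, the mitochondrial enzyme that makes itaconate. Cd163, the haemoglobin scavenger receptor, marks subsets of resident and anti-inflammatory macrophages. Nos2 makes nitric oxide from arginine. In tumours these programmes often occur side by side, and the 6 genes are read as markers of states rather than of separate cell types.

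The genes lie on 6 chromosomes of GRCm38, the build of the GENCODE M21 annotation, and all are protein coding. Nos2 (ENSMUSG00000020826) spans chr11:78920787-78960254 on the plus strand. Mrc1 (ENSMUSG00000026712) spans chr2:14229392-14332057 on the plus strand and contains the microRNA gene Mir511 on the same strand, which is not among the features. Retnla (ENSMUSG00000061100) spans chr16:48842551-48844461 on the plus strand, and Chil3 (ENSMUSG00000040809) spans chr3:106147554-106167564 on the minus strand. Acod1 (ENSMUSG00000022126) spans chr14:103046977-103056573 and Cd163 (ENSMUSG00000008845) spans chr6:124304656-124330527, both on the plus strand. No other annotated gene overlaps the remaining 5.

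The 250 bases before the RefSeq start site (GRCm38.p6) were available for Mrc1, Chil3, Cd163, Acod1 and Retnla. They are shown for Retnla, Chil3, Acod1 and Mrc1, the genes on which most values below turn, and they read 5′ to 3′ on the strand of the gene. Capitals mark matches to 3 short motifs, TTC and GAA with 4 bases between them (the spacing bound by STAT6), TTGCNNAA (half-sites of C/EBP factors) and TATAAA (the TATA box). The windows of Chil3 and Mrc1 held none of them.
Retnla, chr16:48842359-48842608, plus strand: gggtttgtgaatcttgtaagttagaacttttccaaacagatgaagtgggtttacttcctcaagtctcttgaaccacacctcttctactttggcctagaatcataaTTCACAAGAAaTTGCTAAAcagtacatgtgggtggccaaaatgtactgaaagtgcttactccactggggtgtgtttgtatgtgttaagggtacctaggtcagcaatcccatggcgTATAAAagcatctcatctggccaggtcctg
Chil3, chr3:106167565-106167814, minus strand: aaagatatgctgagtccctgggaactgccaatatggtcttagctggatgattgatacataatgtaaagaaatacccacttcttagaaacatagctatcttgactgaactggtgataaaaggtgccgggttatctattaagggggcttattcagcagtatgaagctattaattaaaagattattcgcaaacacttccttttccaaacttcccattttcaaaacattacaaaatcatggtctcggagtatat
Acod1, chr14:103046762-103047011, plus strand: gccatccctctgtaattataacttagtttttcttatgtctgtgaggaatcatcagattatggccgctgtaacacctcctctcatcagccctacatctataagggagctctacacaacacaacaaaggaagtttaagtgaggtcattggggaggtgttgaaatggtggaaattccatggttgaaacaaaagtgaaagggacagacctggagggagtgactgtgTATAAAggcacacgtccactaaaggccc
Mrc1, chr2:14229164-14229413, plus strand: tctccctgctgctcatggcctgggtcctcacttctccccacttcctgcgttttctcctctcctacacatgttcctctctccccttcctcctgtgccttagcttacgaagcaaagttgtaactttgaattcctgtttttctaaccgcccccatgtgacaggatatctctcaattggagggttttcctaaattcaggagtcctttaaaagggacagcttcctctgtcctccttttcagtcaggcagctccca

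Both strands were searched, and each match was counted in bases before the start site. The STAT6 spacing was matched in 1 of the 5 members' windows, that of Retnla, 145 bases before its start, and in 5.85% of all 32851 windows of the same length. TTGCNNAA was matched in Retnla as well, 134 bases before its start and 1 base past the STAT6 match, and in 9.56% of all windows. The TATA box was matched in Retnla and Acod1, 30 and 28 bases before their starts, and in 12.4% of all windows. No window of the 5 held the NF-kB consensus, found in 7.25% of all windows. The STAT6 spacing reads the same on both strands, so its match is 1 stretch of sequence. These matches describe letters in a short window and say nothing of binding.

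Acod1, Nos2 and Retnla were higher in the TAK-931 library in both gates, Mrc1 was lower in both, Cd163 was lower in the macrophage gate, and Chil3 differed by less than 2-fold. In the macrophage gate all 6 members had at least 10 UMIs over both libraries. Of them, 3 were at least 2-fold higher in TAK-931 cells (Nos2, Retnla and Acod1), against 8.03% of the 12996 genes counted, and 2 were at least 2-fold lower (Mrc1 and Cd163), against 11.9% of those genes. With the libraries scaled by the median ratio of their genes instead, Mrc1 had a log2 ratio of -0.96 and 1 member (Cd163) remained at least 2-fold lower. The median log2 ratio was 1.38 over the members, with Retnla at its lower bound, and -0.06 over all genes. In the monocyte gate 5 members had enough UMIs, Cd163 being the exception. Of these, 3 were at least 2-fold higher (Nos2, Retnla and Acod1), against 9.36% of 11523 genes, and 1 was at least 2-fold lower (Mrc1), against 8.38%. The median log2 ratio there was 3.24 over the 5 members, the value of Acod1, and 0 over all genes. Nos2 and Retnla had 1 and 0 UMIs in each vehicle gate and could reach 10 UMIs only through the TAK-931 library, so their place among the higher genes was set in part by that limit, and nothing is read from these counts. These 6 genes were not drawn at random from all genes, and in a library of 1 tumour the counts carry no error beyond that of counting.

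**Figure D1:**
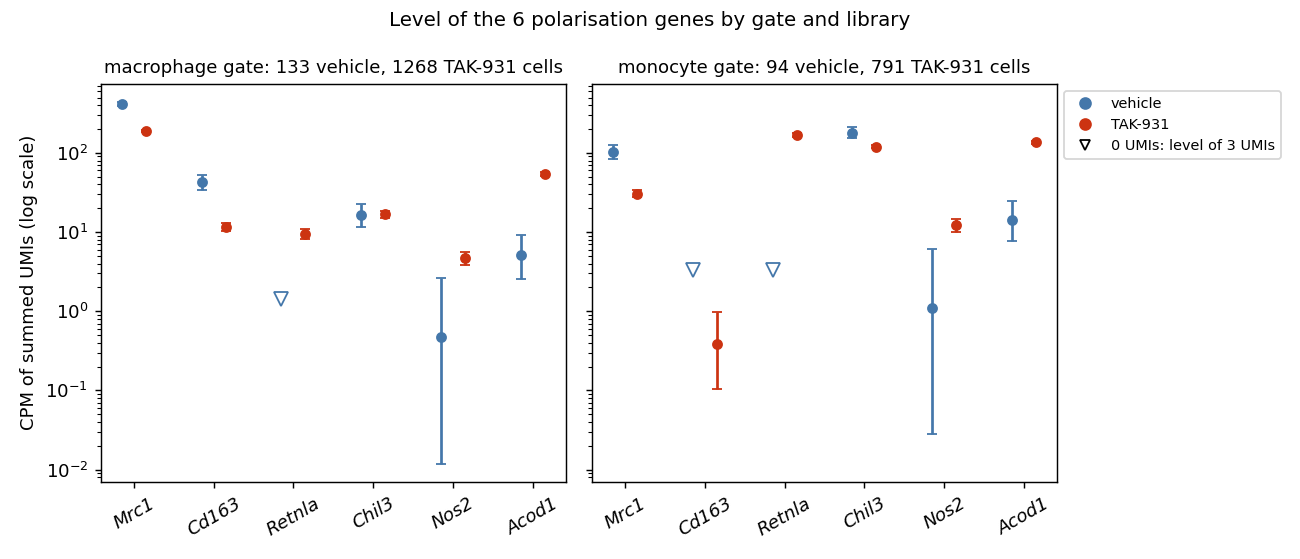
Level of each of the 6 genes in CPM of summed UMIs (log scale) in the macrophage gate (left) and the monocyte gate (right), for the vehicle library (blue) and the TAK-931 library (red). Points are the sums over all cells of a gate, bars are exact 95% Poisson intervals that cover counting error only, and open triangles stand at the level of 3 UMIs where no UMI was found. Acod1 and Nos2 lie higher and Mrc1 lies lower in TAK-931 cells of both gates, and the intervals of Chil3 overlap in the macrophage gate.

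Acod1, which converts cis-aconitate to itaconate in activated macrophages, had the broadest increase. Its level in the macrophage gate was 5.18 CPM (11 UMIs in 6 cells) in the vehicle library and 54.4 CPM (1284 UMIs in 389 cells) in the TAK-931 library, 10.5-fold higher, with a log2 ratio of 3.39 (interval 2.55 to 4.40). In the monocyte gate it was 14.4 CPM (13 UMIs) in the vehicle library and 136 CPM (1416 UMIs) in the TAK-931 library, a log2 ratio of 3.24 (2.46 to 4.15). The intervals of the 2 libraries did not overlap in either gate. With every cell thinned to 4000 UMIs, which takes the difference in depth out of a share, 2.26% of vehicle and 14.6% of TAK-931 macrophage-gated cells had a UMI of Acod1, a difference of 12.3 points (7.78 to 14.9). The thinned shares in the monocyte gate were 5.32% and 30.2%, a difference of 24.9 points (17.7 to 29.4). Unthinned, 4.51% and 30.7% of macrophage-gated cells and 8.51% and 47.2% of monocyte-gated cells had one. T and NK cells, which should lack the gene, gave 2.01% in the TAK-931 library at a median of 14108.5 UMIs per cell before thinning, below the shares of both TAK-931 gates. In the vehicle library none of 17 T and NK cells and 4 of 3011 plasmacytoma cells had one after thinning (0.133%, 0.0362 to 0.340, at a median of 42398 UMIs before it), against 3 of 133 macrophage-gated cells (0.468% to 6.45%).

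The higher level of Acod1 was spread over many cells. Of the 2700 Acod1 UMIs in both gates of the TAK-931 library, the cell with most held 23, and 141 cells were needed to reach 50% of them. Its direction was the same in each subset that was examined after seeing the data, and the intervals of the 2 macrophage subsets given next overlapped. Macrophage-gated cells with no Ly6c2 UMI had 1.79 CPM in the vehicle library and 21.5 CPM in the TAK-931 library, a log2 ratio of 3.59 (2.02 to 5.88), and cells with one had 17.9 and 74.8 CPM, a log2 ratio of 2.06 (1.08 to 3.28). Cells with no plasmacytoma marker UMI gave log2 ratios of 4.31 in the macrophage gate and 3.03 in the monocyte gate.

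Nos2, the inducible nitric oxide synthase, was all but undetected in vehicle cells. A single UMI was found in each vehicle gate, 0.470 CPM in macrophages and 1.11 CPM in monocytes. The TAK-931 library had 110 UMIs (4.66 CPM) in 34 macrophage-gated cells and 127 UMIs (12.2 CPM) in 40 monocyte-gated cells. The log2 ratios were 3.31 (0.80 to 8.63) and 3.46 (0.95 to 8.77), wide intervals because the vehicle side is 1 UMI. Without the cell that held most Nos2 UMIs in each gate of each library, the vehicle gates were at 0 and the log2 ratios became lower bounds of 1.53 and 1.60, while the TAK-931 levels were 4.11 and 10.2 CPM. The Nos2 cells were few, 1.18% of macrophage-gated and 2.65% of monocyte-gated TAK-931 cells after thinning, against 0 of 133 vehicle macrophages, which at this depth allows a share of cells with a UMI of up to 2.26%, and 1.06% of vehicle monocytes. The difference in share was 1.18 points (-1.66 to 1.94) in macrophages and 1.59 points (-3.21 to 3.22) in monocytes, so a difference in the share of cells with a UMI was not detectable at this depth. Unthinned, 0.752% of vehicle and 2.68% of TAK-931 macrophages and 1.06% and 5.06% of monocytes had one, differences of 1.93 and 3.99 points, at medians of 13283 and 16400.5 UMIs in macrophages and 8414 and 12110 UMIs in monocytes. In 596 T and NK cells of the TAK-931 library no Nos2 UMI was seen after thinning, which allows a share of cells with a UMI of up to 0.503%.

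Nos2 UMIs lay mostly in Ly6c2-positive cells, which were also most cells of both TAK-931 gates. Of the 110 UMIs in TAK-931 macrophage-gated cells, 106 were in the 810 cells with a Ly6c2 UMI and 4 in the 458 cells without one, and all 127 of the monocyte gate were in the 712 cells with one. By cells, 32 of the 34 Nos2 cells in the macrophage gate and all 40 in the monocyte gate had a Ly6c2 UMI. Of all TAK-931 cells in these gates, 63.9% and 90.0% had one, so the monocyte count departs little from the share of its gate. In macrophage-gated cells with no Ly6c2 UMI the vehicle library had 1 Nos2 UMI and the TAK-931 library 4. The log2 ratio there was -0.43 (-3.77 to 5.19), and so few UMIs show no direction. Monocyte-gated cells with a Ly6c2 UMI had 1 and 127 Nos2 UMIs, a log2 ratio of 2.94 (0.43 to 8.25). With no plasmacytoma marker UMI the vehicle macrophage gate had 0 Nos2 UMIs and the TAK-931 gate 46, and the monocyte gate had 1 and 67, a log2 ratio of 2.36 (-0.17 to 7.68) that includes no difference. Since the share of Ly6c2-positive cells differed between the treatments, its part in the Nos2 ratio was not tested beyond these subsets.

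**Figure D2:**
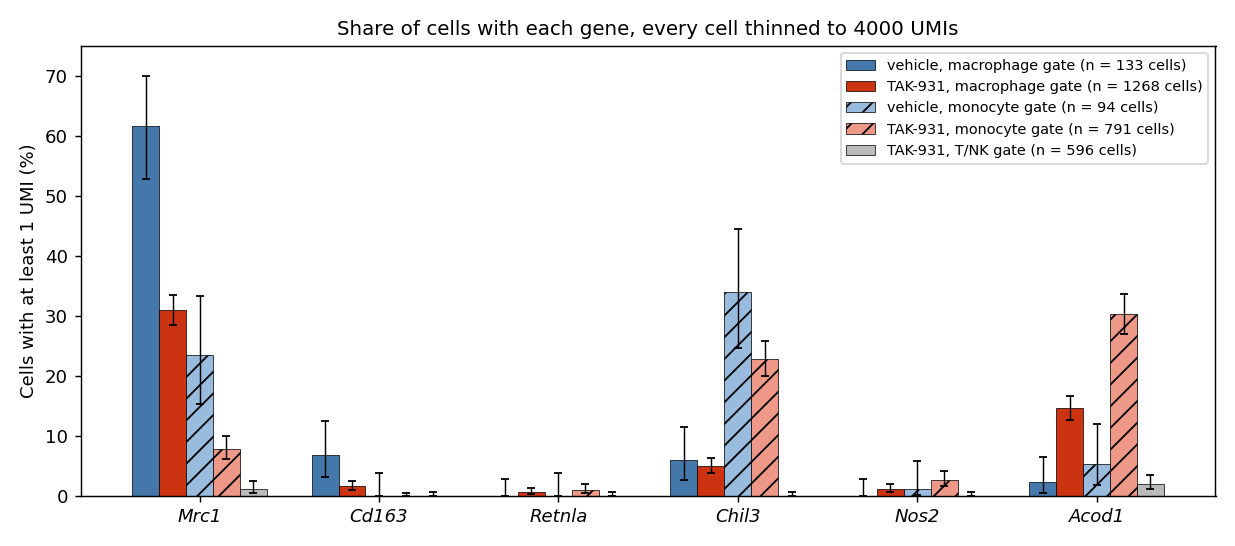
Share of cells with at least 1 UMI of each gene after every cell was thinned to 4000 UMIs, in percent, for the macrophage gate (solid bars), the monocyte gate (hatched bars) and T and NK cells of the TAK-931 library (grey), with exact 95% Clopper-Pearson intervals. Mrc1 stands at 61.7% of vehicle and 30.9% of TAK-931 macrophage-gated cells, Acod1 stands at 14.6% and 30.2% of TAK-931 macrophages and monocytes, and Nos2 and Retnla stay under 3% in every gate.

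Retnla, a secreted protein of the resistin family induced by interleukin-4, was not found in any vehicle barcode. The TAK-931 library had 223 UMIs (9.45 CPM) in 20 macrophage-gated cells and 1756 UMIs (168 CPM) in 9 monocyte-gated cells. Against the floor of 3 UMIs in the vehicle gate these levels were at least 6.69-fold and at least 50.6-fold higher. Both rest on single cells. A monocyte-gated cell held 1045 Retnla UMIs, 52.8% of those in both gates and 2.08% of its own 50209 UMIs, a second held 613, and a macrophage-gated cell held 150. The C1q level of this last cell was 657 CPM, near the limit of 500 CPM between the gates, and with a limit of 1000 CPM the macrophage bound was 1.17 on the log2 scale instead of 2.74. The top 5 cells held 96.0%, and the level in both gates was 58.1 CPM with the first cell and 27.5 CPM without it. The thinned shares were 0.631% of TAK-931 macrophages and 1.01% of TAK-931 monocytes, and the differences from the vehicle gates, 0.631 points (-2.19 to 1.24) and 1.01 points (-2.95 to 1.98), were not detectable at this depth and with so few vehicle cells. With no plasmacytoma marker UMI the vehicle gates again had none, and the TAK-931 gates had 174 UMIs (14.6 CPM) in macrophages and 615 UMIs (93.7 CPM) in monocytes.

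The Retnla-rich cells held Mrc1 and Acod1 but no Chil3. The 5 cells with most Retnla held 24, 32, 10, 2 and 11 UMIs of Mrc1 and 8, 10, 1, 5 and 6 UMIs of Acod1, and no UMI of Chil3. They were deep cells, with 50209, 61983, 28932, 29665 and 26226 UMIs, against TAK-931 medians of 12110 in monocytes and 16400.5 in macrophages. After thinning, 3 of 8 Retnla cells in the monocyte gate had Acod1, where the product of the 2 shares gives 2.42. Mrc1 was in 3, where it gives 0.627. In the macrophage gate 1 of 8 had Acod1, where it gives 1.17, and 6 had Mrc1, where it gives 2.47. Holding Acod1 is thus not read as a trait of these cells. Of the Retnla UMIs in TAK-931 cells, 1710 of 1756 in the monocyte gate and 212 of 223 in the macrophage gate were in cells with no Ly6c2 UMI. By cells, a Retnla UMI was found in 4 of 79 monocyte-gated cells without and 5 of 712 with a Ly6c2 UMI, and in 10 of 458 and 10 of 810 macrophage-gated cells.

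**Figure D3:**
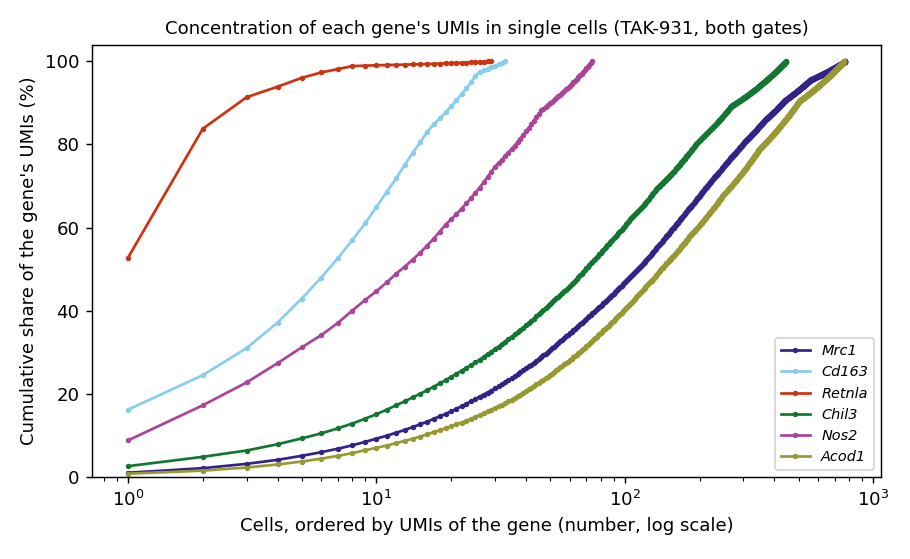
Cumulative share of each gene's UMIs (percent) against the number of cells, ordered from the cell with most UMIs of that gene (log scale), in the macrophage and monocyte gates of the TAK-931 library together. The Retnla curve starts at 52.8% with a single cell, while Mrc1, Acod1 and Chil3 spread over 446 to 772 cells.

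Chil3, a chitinase-like lectin made by monocytes and by interleukin-4-activated macrophages, differed by less in the macrophage gate than counting could resolve. It had 16.5 CPM (35 UMIs) in the vehicle library and 16.7 CPM (394 UMIs) in the TAK-931 library there, a log2 ratio of 0.02 (-0.48 to 0.56). In the monocyte gate it was lower in TAK-931 cells, at 179 CPM (162 UMIs) and 120 CPM (1255 UMIs), a log2 ratio of -0.58 (-0.81 to -0.33), which is under 2-fold. The thinned shares there were 34.0% and 22.8%, a difference of -11.3 points (-21.7 to -1.99). In macrophages they were 6.02% and 4.97%, a difference of -1.05 points (-6.56 to 2.18), and the unthinned shares of 9.02% and 14.5% lay in the opposite order. Within cells of like Ly6c2 status the log2 ratio of Chil3 was below 0 in all 4 subsets. It was -1.78 in macrophage-gated cells without a Ly6c2 UMI and -4.25 and -0.71 in monocyte-gated cells without and with one, while the interval in macrophage-gated cells with one, -0.75 (-1.41 to 0.00), includes no difference. Cells with no plasmacytoma marker UMI gave log2 ratios of -0.48 (-1.16 to 0.28) in the macrophage gate and -0.37 (-0.69 to -0.03) in the monocyte gate. The whole macrophage gate showed no such difference, and it held more Ly6c2-positive cells in the TAK-931 library. Among the cells richest in C1q, Chil3 was higher in the TAK-931 library, as given below with the C1q bins.

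Mrc1, the mannose receptor, was the member found in most macrophages and was lower after TAK-931. Its level in the macrophage gate was 414 CPM (387 to 442; 880 UMIs) in the vehicle library and 189 CPM (183 to 194; 4457 UMIs) in the TAK-931 library, 2.19-fold lower, with a log2 ratio of -1.13 (-1.24 to -1.03), or -0.96, under 2-fold, with median-ratio scaling. In the monocyte gate it was 103 CPM (93 UMIs) and 30.6 CPM (320 UMIs), a log2 ratio of -1.75 (-2.09 to -1.40). After thinning, Mrc1 was found in 61.7% of vehicle macrophages but in 30.9% of TAK-931 macrophages, which differ by -30.7 points (-38.9 to -21.9), and in 23.4% and 7.84% of monocytes. T and NK cells of the TAK-931 library gave 1.17%. In macrophage-gated barcodes of more than 500 and up to 2000 genes, which the filter left out, the lower level was not seen, with 123 CPM (70.2 to 199.6; 16 UMIs) of Mrc1 in vehicle and 122 CPM (95.9 to 154; 73 UMIs) in TAK-931 barcodes.

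The Mrc1 difference was smaller within Ly6c2-negative cells. With no Ly6c2 UMI, 110 vehicle and 458 TAK-931 macrophage-gated cells had 426 and 337 CPM of Mrc1, a log2 ratio of -0.34 (-0.46 to -0.22). With a Ly6c2 UMI, 23 vehicle and 810 TAK-931 cells had 370 and 97.2 CPM, a log2 ratio of -1.93 (-2.16 to -1.68). The vehicle level there rests on 165 Mrc1 UMIs in 12 cells. Of these UMIs, 49 were in 1 cell, the vehicle cell that also held most Cd163. In the monocyte gate the Mrc1 ratio was -0.42 (-0.95 to 0.12) without and -1.86 with a Ly6c2 UMI. The 2-fold lower level of the whole gate was thus not reached in Ly6c2-negative cells. The Ly6c2-positive cells were 23 of 133 in the vehicle library and 810 of 1268 in the TAK-931 library, with medians of 12274 and 15675 UMIs against 13461.5 and 17936.5 UMIs in the negative cells, and how far their share sets the ratio was not tested. Cells with no plasmacytoma marker UMI gave -1.17 and -1.98 in the macrophage and monocyte gates, close to the values of all cells.

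**Figure D4:**
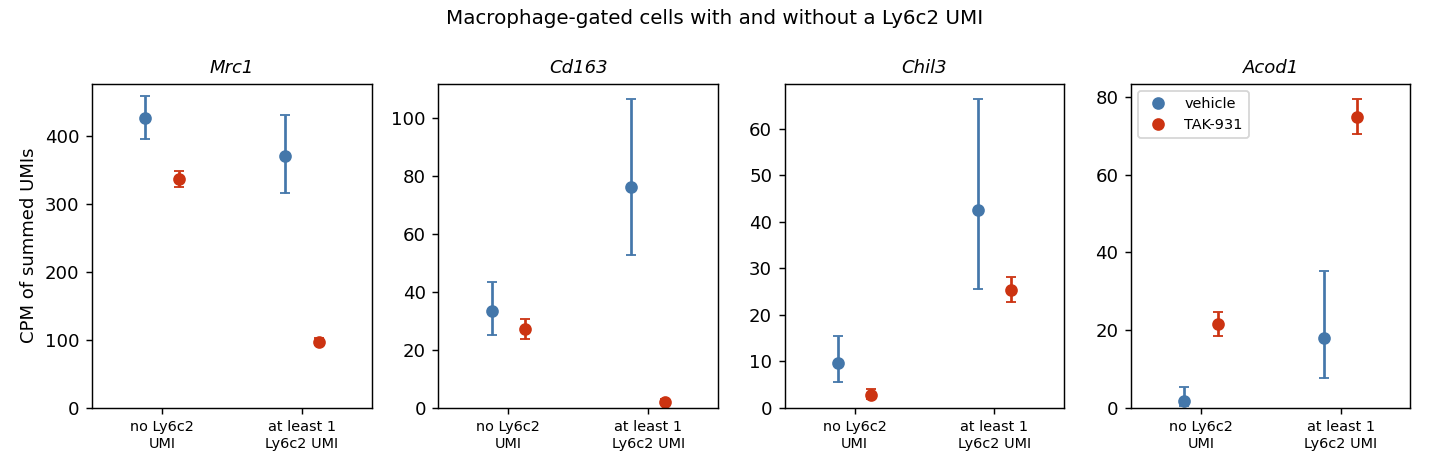
Level of Mrc1, Cd163, Chil3 and Acod1 in CPM of summed UMIs in macrophage-gated cells without (110 vehicle, 458 TAK-931 cells) and with (23 vehicle, 810 TAK-931 cells) a Ly6c2 UMI, with exact 95% Poisson intervals; the 4 genes were picked after their values were seen. Mrc1 is 426 and 337 CPM where Ly6c2 is absent and 370 and 97.2 CPM where it is present, Acod1 is higher in TAK-931 cells in both, and the Cd163 level of vehicle cells with Ly6c2 comes from 34 UMIs in 2 cells.

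Cd163 followed Mrc1 at a lower level. The macrophage gate had 42.3 CPM (90 UMIs in 14 cells) in the vehicle library and 11.6 CPM (273 UMIs in 29 cells) in the TAK-931 library, 3.66-fold lower, with a log2 ratio of -1.87 (-2.22 to -1.51). The monocyte gate had 0 and 4 UMIs. After thinning, 6.77% of vehicle and 1.58% of TAK-931 macrophages had a UMI, a difference of -5.19 points (-10.8 to -1.91). Cells with no Ly6c2 UMI had 33.4 and 27.0 CPM, a log2 ratio of -0.30 (-0.73 to 0.14) that includes no difference, and cells with one had 76.2 and 1.99 CPM, a log2 ratio of -5.26 (-6.02 to -4.50). The vehicle level with Ly6c2 rests on 34 UMIs in 2 of 23 cells, one of them the vehicle cell with most Cd163 (29 UMIs), and the TAK-931 level on 29 UMIs in 4 of 810 cells. Cells with no plasmacytoma marker UMI had 17 and 45 UMIs, a log2 ratio of -2.64 (-3.47 to -1.74), against -1.87 in the whole gate. Single cells weigh here as well, since 1 of the 14 vehicle cells held 29 of the 90 UMIs and 7 cells held 50% of the TAK-931 UMIs.

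The levels of Mrc1, Cd163, Chil3 and Acod1 varied with the C1q level of a cell, here over bins chosen after seeing the data that run from monocyte-gated to C1q-rich macrophage-gated cells. In the TAK-931 library Mrc1 lay between 25.6 and 33.4 CPM in the 4 bins under 2000 CPM of C1q, at 80.4 CPM from 2000 to 8000, and at 265 CPM above 8000. In the vehicle library Mrc1 was 103 CPM under 50, 286 CPM from 2000 to 8000 (33 cells) and 475 CPM above 8000 (96 cells). Mrc1 was thus higher in C1q-rich cells in both libraries, and lower in TAK-931 than in vehicle cells in each of the 3 bins that could be compared. Cd163 was found almost only above 8000 CPM of C1q, with 271 of the 273 UMIs of the TAK-931 macrophage gate and levels of 55.1 CPM in vehicle and 18.8 CPM in TAK-931 cells. Chil3 ran the other way, from 132 CPM under 50 to 6.25 CPM above 8000 in the TAK-931 library and from 192 to 0.649 CPM in the vehicle library. Above 8000 it was higher in TAK-931 cells, at 6.25 CPM (5.03 to 7.69) against 0.649 CPM (0.0164 to 3.61, 1 UMI). From 2000 to 8000 it was lower in TAK-931 cells, at 28.4 against 63.7 CPM, as it was under 50. Acod1 in TAK-931 cells was between 112 and 149 CPM under 2000 CPM of C1q, 76.6 CPM from 2000 to 8000 and 34.2 CPM above, and vehicle cells had 14.9, 9.65 and 1.95 CPM in the 3 bins. Nos2 and Retnla had no such order. Over the 6 bins of TAK-931 cells Nos2 was highest from 50 to 200 CPM of C1q (21.9 CPM) and between 3.13 and 7.76 CPM in the others, and Retnla lay between 0.676 and 235 CPM as single cells fell into one bin or another.

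**Figure D5:**
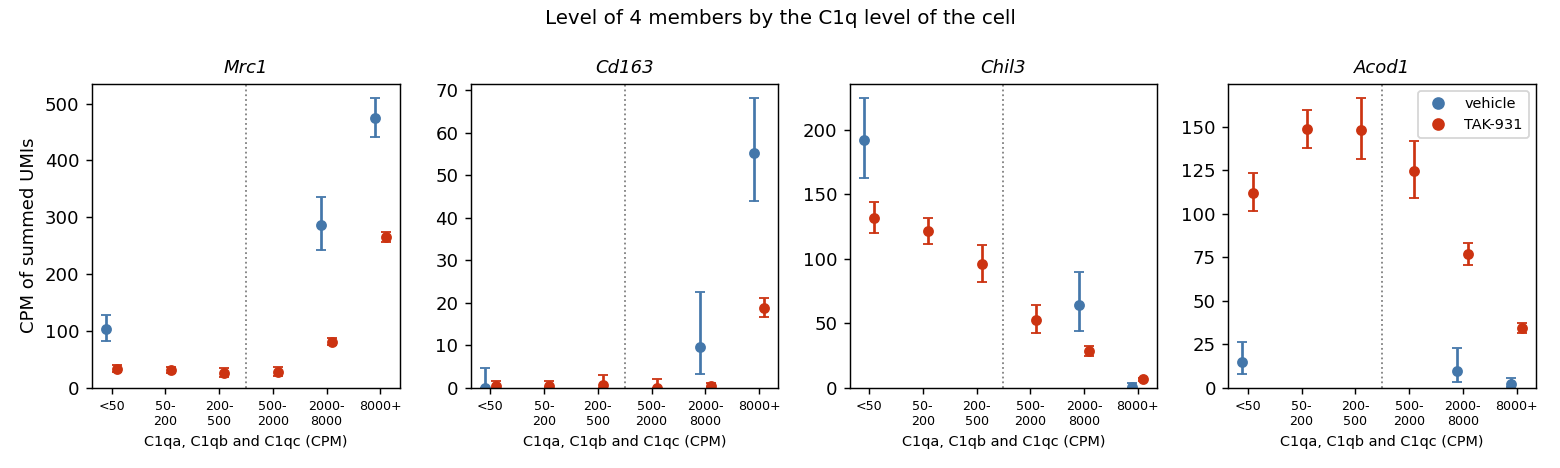
Level of Mrc1, Cd163, Chil3 and Acod1 (CPM of summed UMIs) in myeloid-gated cells binned by their summed C1qa, C1qb and C1qc level (CPM), for the vehicle (blue) and TAK-931 (red) libraries with exact 95% Poisson intervals. Bins and genes were chosen after seeing the data, the dotted line is the limit between the monocyte and macrophage gates, and vehicle bins with few cells are not drawn. Mrc1 and Cd163 are highest and Chil3 and Acod1 are lowest in the bin above 8000 CPM.

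The difference between the gates had the same direction in both libraries for the members found in both. Mrc1 was 4.02-fold higher in macrophage- than in monocyte-gated cells of the vehicle library and 6.16-fold higher in the TAK-931 library, and Cd163 was at least 12.7-fold and 30.2-fold higher. The other members were higher in the monocyte gate. Chil3 was 10.9-fold and 7.20-fold higher there, Acod1 2.78-fold and 2.49-fold, and in the TAK-931 library Nos2 was 2.61-fold and Retnla 17.8-fold higher. The Retnla value rests on 2 monocyte-gated cells, which held 1658 of the 1756 UMIs. Without the 2 cells with most Retnla in each gate, the monocyte gate had 9.49 CPM and the macrophage gate 2.00 CPM, and unthinned a Retnla UMI was found in 1.14% of monocyte- and 1.58% of macrophage-gated cells. Within the TAK-931 monocyte gate, 146 cells with at least 200 CPM of the non-classical monocyte genes Ace, Treml4 and Cd300e, a split made after seeing the data, had no UMI of Retnla and 1 of Nos2 (0.626 CPM). These cells were not free of classical monocyte genes, with 664 CPM of Ly6c2 (in 100 of the 146) and 167 CPM of Ccr2, against 1560 and 314 CPM in the rest. The other 645 cells had 14.2 CPM of Nos2, and of Retnla they had 199 CPM in 9 cells, mostly from the same 2 cells. Chil3 was 58.9 CPM in the cells with these genes and 131 CPM in the others, Mrc1 7.52 and 34.8 CPM, and Acod1 98.3 and 142 CPM.

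Pairs of members in the same thinned cell were counted for all 15 pairs, and those named here were picked after their values were seen. Nos2 and Acod1 coincided in the TAK-931 library. Of 15 macrophage-gated cells with Nos2, 12 also had Acod1 (80.0%, against 13.8% of the cells without Nos2), where the product of the 2 shares gives 2.19 cells. Of 21 monocyte-gated cells with Nos2, 19 had Acod1 (90.5%, against 28.6%), where the product gives 6.35. Mrc1 and Cd163 coincided too, in 18 of 20 Cd163 cells of the TAK-931 macrophage gate, with 6.18 given by the product, and in 9 of 9 in the vehicle gate, with 5.55. Mrc1 occurred with Acod1 or Chil3 in fewer cells than the product gives. Mrc1 and Acod1 shared 31 thinned TAK-931 macrophages, with 57.2 given by the product, and Mrc1 and Chil3 shared 8, with 19.5. Unthinned they shared 137 and 69 cells, with 204 and 96.4 given by the product, and the part of Mrc1 cells with Acod1 was 20.6% against 7.91% after thinning, and with Chil3 10.4% against 2.04%. Cells of 1 tumour are not replicates, and Mrc1, Cd163, Chil3 and Acod1 also varied with the C1q level of a cell, whose part in these counts was not tested.

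The number of the 6 members found in a cell depends on depth. After thinning, 33.8% of vehicle and 53.2% of TAK-931 macrophages had none of the 6 genes, 56.4% and 40.2% had 1, 9.02% and 5.99% had 2, and no cell of either gate had 4 or more. Among thinned monocytes, 43.6% of vehicle and 48.8% of TAK-931 cells had none, 48.9% and 38.9% had 1, 7.45% and 11.3% had 2, and 0 and 1.01% had 3. Unthinned, 17.7% of TAK-931 macrophages and 23.4% of TAK-931 monocytes had 2, 4.57% and 3.79% had 3, and 6 macrophages and 1 monocyte had 4.

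The genes whose counts followed each member most closely over the 2059 thinned TAK-931 cells of both gates were taken from 6019 genes found in at least 5% of them, and the correlations (Pearson's r of log2 values) are given as descriptions over cells of 1 library that share depth and free RNA. Mrc1 ran with Selenop (0.53, and 0.49 in 227 vehicle cells), Ccl8 (0.49 and 0.41) and Timp2 (0.46 and 0.41). Chil3 ran with Thbs1 (0.40 and 0.38), the gene of thrombospondin 1, and S100a4 (0.35 and 0.39). Acod1 ran with the mitochondrial superoxide dismutase Sod2 (0.38 and 0.17), Prdx5 (0.37 and 0.07) and Clec4e (0.34 and 0.12). Cd163 ran with the folate receptor gene Folr2 (0.41 and 0.26), Cp (0.38 and -0.03) and C4b (0.32 and 0.26). For the rare members, Nos2 ran with Acod1 (0.25), Gm15056 (0.23) and Inhba (0.21) and Retnla with Fn1 (0.30), all weak values in sparse counts. These values pool both gates, which differ in the levels of the members, and several were lower within a gate. In TAK-931 cells Chil3 had 0.21 with Thbs1 and 0.16 with S100a4 in the macrophage gate, and Mrc1 had 0.12 with Selenop, 0.16 with Ccl8 and 0.09 with Timp2 in the monocyte gate.

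Other genes of the same pathways were counted in the same way, from lists that did not include the members, and are read beside the shares of all genes given above (in macrophages 8.03% higher and 11.9% lower, in monocytes 9.36% and 8.38%). Of the 16 interferon gamma and LPS response genes, 4 were at least 2-fold higher and 0 lower of 16 counted in the macrophage gate, with a median log2 ratio of 0.64, and 6 were higher and 0 lower of 15 in the monocyte gate, with a median of 0.73. Irf1, a transcription factor induced by interferons, had log2 ratios of 1.75 in macrophages and 1.47 in monocytes. The co-stimulatory receptor Cd40 had 1.50 in macrophages, the chemokine Cxcl10 had 2.10 in monocytes, Tnf had 1.02 in monocytes, and Ptgs2, a prostaglandin synthase, had 1.32 and 1.02. Il6 had 1 and 49 UMIs in macrophages, a log2 ratio of 2.14 (-0.40 to 7.47). Cxcl9, the gene with the highest level of this list in the TAK-931 library, had 318 and 450 CPM in macrophages. Il1b, the gene of the cytokine interleukin-1 beta and named after its values were seen, had the highest level of the list in the vehicle library and was lower in TAK-931 cells of both gates by less than 2-fold. It had 430 and 293 CPM in macrophages, a log2 ratio of -0.55 (-0.65 to -0.45), and 805 and 536 CPM in monocytes, a log2 ratio of -0.59 (-0.70 to -0.47).

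Of the 16 interleukin-4 and interleukin-13 response genes, 3 were at least 2-fold higher and 2 lower of 15 counted in the macrophage gate (median 0.22), and 3 were higher and 3 lower of 14 in the monocyte gate (median 0.47). The genes past 2-fold lay in both directions, and the lower ones in macrophages, 2 of 15, were near the 11.9% of all genes. In macrophages the PD-1 ligand gene Pdcd1lg2 had a log2 ratio of 3.22 (3 and 310 UMIs), the cytokine signalling inhibitor Socs1 1.90 and the lectin Clec10a 1.37, while the chemokine Ccl24 had -2.47. In monocytes Pparg had 2.24, Ccl24 -2.13, Irf4 -1.91 and Mgl2 -1.64. Tgm2, with the highest level in the list, had 342 and 357 CPM in macrophages.

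Of the 10 genes of arginine, nitric oxide and itaconate metabolism, 1 was at least 2-fold higher and 1 lower of 10 counted in the macrophage gate (median 0.26) and 1 higher and 1 lower of 9 in the monocyte gate (median 0.36). In macrophages 1 of 10 in each direction is near the 8.03% and 11.9% of all genes. The higher gene in both gates was Slc7a2, a cationic amino acid transporter that brings arginine into macrophages, with 2 and 137 UMIs and a log2 ratio of 2.63 in macrophages and 1.59 in monocytes. The lower gene in both was the spermidine synthase gene Srm, with -2.28 and -2.09. Sod2 had 0.77 and 0.85, and the arginine transporter gene Slc7a1 had -0.98 in monocytes. Of 12 paralogs of the members, 10 had under 10 UMIs in the macrophage gate or were absent, and no UMI of Chil4, the nearest relative of Chil3 on this list, was found in either gate.

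Of the 12 haem, iron and resident macrophage genes, 2 were at least 2-fold higher and 2 lower in the macrophage gate (median -0.05) and 4 were higher and 0 lower of 10 counted in the monocyte gate (median 0.36). In macrophages the iron exporter Slc40a1 had a log2 ratio of -2.46 and the transcription factor Maf -1.07, while Lyve1 had 1 and 104 UMIs, a log2 ratio of 3.23, and Vsig4 1.39 (-0.53 to 4.46). Slc40a1 lay the other way in monocytes, with 0 UMIs in the vehicle library and 185 (17.7 CPM) in the TAK-931 library, at least 5.33-fold higher. The haem oxygenase gene Hmox1 had 1.95 in monocytes but -0.76 (-0.85 to -0.67) in macrophages, and Blvrb had 1.22 in monocytes. Ftl1, the most abundant gene of the list, had -0.08 in macrophages and 0.40 in monocytes. Folr2, the gene that ran most closely with Cd163, had 75.3 and 70.4 CPM in macrophages, a log2 ratio of -0.10 (-0.33 to 0.15).

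Cytokines that act on macrophages were counted over all kept cells, whose UMI totals differ between the libraries, so levels are given beside the counts. Ifng, interferon gamma, had 10 UMIs (0.0709 CPM) in vehicle cells and 1215 (17.5 CPM) in TAK-931 cells, 69.6% of the latter in T and NK cells. Il4 had 3 and 11 UMIs (0.0213 and 0.159 CPM) and Il13 had 2 and 22 (0.0142 and 0.317 CPM), the latter in 2 cells. Csf2 had 0 and 58 UMIs, and Csf1 had 158 and 1820 (1.12 and 26.3 CPM). Il10 had 2468 UMIs in vehicle and 1743 UMIs in TAK-931 cells, but its level ran the other way, at 17.5 and 25.1 CPM. Of its UMIs, 10.5% lay in the 2 myeloid gates of the vehicle library and 83.8% in those of the TAK-931 library. The T and NK gate held 17 vehicle and 596 TAK-931 cells.

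Among the kept cells, the members other than Nos2 were low in the 5 named classes outside the myeloid gates. In the TAK-931 library Nos2 was 28.9 CPM in 64 fibroblast or mural cells (48 UMIs in 5 cells, 22 of them in 1), 13.6 CPM (9.59 to 18.8) in 146 endothelial cells and 12.2 CPM (10.1 to 14.5) in monocytes, the last pair overlapping, followed by 4.66 CPM in macrophages. The 177 myeloid cells left out of the gates for markers of another lineage held 84 of the library's 507 Nos2 UMIs (16.6%, a level of 16.2 CPM), and had 54.1 CPM of Acod1, 47.3 CPM of Mrc1 and 29.4 CPM of Chil3. Endothelial cells of the vehicle library had 9.10 CPM (7 UMIs), so their interval of 3.66 to 18.8 overlapped that of TAK-931 cells. Fibroblast or mural cells of the vehicle library had 3.45 CPM of Nos2 (2 UMIs in 1 of 21 cells). Their log2 ratio was 3.07 (1.14 to 6.15), with a TAK-931 side that rests on 5 cells. Acod1 in the TAK-931 library was 136 CPM in monocytes and 54.4 CPM in macrophages, and between 5.15 and 7.24 CPM, with overlapping intervals, in fibroblast or mural, T and NK, dendritic and endothelial cells. Mrc1 in the TAK-931 library was between 1.33 and 2.21 CPM in each of these 5 classes (T and NK, dendritic, endothelial, fibroblast or mural and plasmacytoma cells), with overlapping intervals, against 189 and 30.6 CPM in macrophages and monocytes. Cd163 was 3.98 CPM in 41 dendritic cells, all 3 UMIs in 1 cell, and Retnla and Chil3 had at most 4 UMIs in each of these 5 classes of the TAK-931 library.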

How the data were processed

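Both libraries were made with droplet 3′ chemistry (10x, v3.1) from dissociated tumours. The deposited matrices hold raw UMI counts per gene and barcode, written by the authors with Cell Ranger 6.0.0 on mm10 per the submitters' processing notes; the study's methods text names a human build, but the features carry mouse identifiers. Nothing was normalised before deposit.

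The study's own limits (over 2000 genes, under 15% mitochondrial UMIs) were applied. A cell was myeloid with at least 4 of 8 markers and 2000 CPM of them, and was put in the macrophage gate at 500 CPM of C1q genes or in the monocyte gate below that. Cells with markers of another lineage (12 vehicle, 177 TAK-931) were left out, and no doublet caller was run. The members, gene lists and alternatives were chosen with earlier results of these data known.

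UMIs were summed per gate and divided by the gate's total, with exact Poisson intervals, and ratios were given exact conditional binomial intervals. Shares carry Clopper-Pearson and share differences Newcombe intervals. A count of 0 was set to a floor of 3 UMIs for a bound, and a bound under 1-fold was counted as no difference. Genes needed 10 UMIs over both libraries. One further gene of the set of 7 and some other named items are not reported here. The other 6 members are all named; from each gene list up to 4 genes with at least 50 UMIs and the largest absolute log2 ratio were named, with the gene of highest CPM, and for each member up to 3 genes with r of at least 0.2. The 14 alternatives for levels were other gene, mitochondrial and marker limits, other scaling, free RNA subtraction and removal of single or deep cells, and 6 were run for shares. Steps were tested on simulated data. Software versions were scipy 1.17.1, numpy 2.4.6, pandas 2.3.3 and matplotlib 3.10.9 under python 3.11.15.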

Additional observations from a re-analysis of the deposited data

Results flagged for a closer look

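Barcodes with more than 500 and up to 2000 genes lie outside the cell filter, and Acod1 was found in them above the vehicle level; they were examined after seeing the data. By the same gates, 163 TAK-931 macrophage-gated barcodes had 62.0 CPM of Acod1, against no UMI in 34 vehicle barcodes. In the monocyte gate 78 TAK-931 barcodes had 291 CPM and 42 vehicle barcodes 22.9 CPM. Barcodes gated on the neutrophil markers Retnlg, Cxcr2 and Mmp8 had the highest level, 5022 CPM (4574 to 5501) in 37 TAK-931 barcodes and 2915 CPM (2396 to 3513) in 20 vehicle barcodes, at medians of 2498 and 1645.5 UMIs. Acod1 was seen in 37 of 37 and 17 of 20 of these, and none of them had a UMI of Nos2, Retnla, Chil3 or Cd163. Of all Acod1 UMIs, 74.2% of 248 in the vehicle library and 29.0% of 4482 in the TAK-931 library lay in barcodes that the filter left out. The other members did not all follow the filtered cells in these barcodes. Mrc1 in the macrophage gate was 123 CPM in vehicle and 122 CPM in TAK-931 barcodes, with overlapping intervals. Chil3 was lower in TAK-931 barcodes of both gates, at 46.1 CPM (16.9 to 100.3; 6 UMIs) and 1.68 CPM (1 UMI) in the macrophage gate and at 343 CPM (270 to 430) and 67.3 CPM (43.6 to 99.4) in the monocyte gate.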

How the results depend on the processing

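The ratios of Acod1, Nos2 and Mrc1 kept their direction in both gates under each of the 14 alternatives given for levels, as did Cd163 in macrophages, and Chil3 stayed under 2-fold in monocytes. The Mrc1 log2 ratio was -0.96 in macrophages when scaled by the median ratio, which left 1 member at least 2-fold lower there (the scaling subtracts -0.18, the median log2 ratio of the 4699 genes with at least 50 UMIs in each library), and -2.22 in monocytes as the mean of each cell's CPM. Of the alternatives added after seeing the data, macrophage-gated cells with no Ly6c2 UMI moved Mrc1 to -0.34, and those with one to -1.93. Nos2 in the cells without one was -0.43 (-3.77 to 5.19) on 1 vehicle and 4 TAK-931 UMIs, which show no direction. Monocyte-gated cells with no Ly6c2 UMI moved Mrc1 to -0.42. Without the cell with most UMIs, Nos2 became a bound of 1.53 in macrophages and 1.60 in monocytes, since the vehicle gates were then at 0. The bound of Retnla dropped to log2 values of 1.13 in macrophages and 4.36 in monocytes without the cell with most UMIs, to 1.17 in macrophages with a C1q limit of 1000 CPM, and to 1.51 in monocytes without the cells of most total UMIs. The Acod1 share difference was 6.54 and 16.1 points at 2000 UMIs and 26.2 and 38.6 points unthinned, in macrophages and monocytes, and the Nos2 share difference in monocytes was 3.99 points unthinned against 1.59. The causes of these changes were not tested beyond the subsets named. The few vehicle cells limit every ratio of Nos2 and Retnla. No paired analysis was possible because each group is 1 library.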
